A study of Homo sapiens with 12 samples.

Results

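The 10 genes described here are the G1 cyclins with their kinases and inhibitors, chosen by name from 20263 genes of 1 table. They are the D-type cyclins CCND1, CCND2 and CCND3, the E-type cyclins CCNE1 and CCNE2, the kinases CDK2, CDK4 and CDK6, and the inhibitors CDKN1B (p27) and CDKN2C (p18). All 10 were found in the table, and 6 of them reached a TPM of 1 in at least 3 libraries and were tested, among 11731 genes tested in all. TPM is a read count divided by gene length and scaled to the same total in every library, so levels of different genes can be set side by side, but the depth behind a value is unknown.

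Messenger RNA was sequenced from U87 cells, the human glioblastoma line U-87 MG, which were kept under hypoxia with 1% O2, for 72 h by the record of the series. The 4 groups of 3 libraries were the empty vector control (vector), the knockout of HIF1α (HIF1α-ko), the knockout of HIF2α (HIF2α-ko) and the dual knockout (HIF1α/2α-ko), and no normoxic group was analysed here. The methods text gives a shorter hypoxic exposure for measurements of mRNA in general. Its exposure of several days is for other assays and includes temozolomide, and the sample titles used here name no drug. Whether a knockout was 1 clone or a pool of cells was not given in the sources used here. Libraries of a group differ by number only, so p-values measure the spread between these libraries, which may be technical.

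HIF1α and HIF2α are oxygen-regulated transcription factors that accumulate under hypoxia and switch on genes through a short DNA element. A cell passes from G1 into S phase when D-type cyclins with CDK4 or CDK6, and then E-type cyclins with CDK2, phosphorylate the retinoblastoma protein and release E2F transcription factors. CDKN1B binds and restrains cyclin E with CDK2, whereas CDKN2C belongs to the INK4 family, which blocks CDK4 and CDK6.

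The transcripts of the targeted genes were reduced but present. HIF1A (HIF1α) was 124 ± 23.5 TPM in vector against 48.5 ± 9.35 in HIF1α-ko (SD, n = 3 each), a log2 change of −1.34 (limma adjusted p = 0.000851). The dual knockout had 75.5 ± 11.9 TPM of HIF1A, above HIF1α-ko by 0.64 on the log2 scale (limma adjusted p = 0.0287). HIF2α-ko, where HIF1A was not targeted, had 86.8 ± 18.1 TPM and overlapped the dual knockout (difference −0.19, limma adjusted p = 0.453). EPAS1 (HIF2α) was 322 ± 31.5 TPM in vector against 107 ± 16.97 after its own knockout and 117 ± 14.4 after the dual knockout (SD, n = 3 each). BNIP3 and CA9 were read beside the targets. BNIP3 went from 1019 ± 334 TPM in vector to 137 ± 2.15 with both genes targeted (SD, n = 3 each). Its log2 change was −2.83, and that of CA9 −2.45 (limma adjusted p = 1.56e-06 and 1.52e-06). Compared with HIF2α-ko, the dual knockout differed by −2.905 and −2.888 (limma adjusted p = 1.46e-06 and 6.13e-07). The HIF1α knockout alone gave −3.76 and −1.85 against vector. Loss of HIF1α protein was not tested here. Of the glial and mesenchymal markers, VIM and CD44 were high in every library (at least 5635 and 399 TPM), NES was at 2.64 to 6.17 TPM, and GFAP, S100B and SOX2 stayed at or below 0.639, 0.837 and 0.0622 TPM. Markers moved with the groups: OLIG2 was 1.91 ± 0.932 TPM in vector and 13.8 ± 5.84 in HIF1α/2α-ko. The summed glial list was at least 12670 TPM in vector and lower in every knockout group. It was 10020 to 11900 TPM in HIF1α-ko, 7183 to 9323 in HIF2α-ko and 6213 to 9810 in HIF1α/2α-ko. Most of this sum was VIM, which averaged 13000 TPM in vector and 6770 in HIF1α/2α-ko. Of the immune markers, CD68 was at 587 to 1633 TPM, lowest on average in HIF1α/2α-ko, and the defining PTPRC and CD3E were at or below 0.033 and 0.111. Their part in the results below was not tested. Vector replicate 1 stood apart from the other vector libraries (Pearson r across genes 0.968 and 0.966, against 0.989 between the other pair), and the replicate 1 libraries of the 3 knockout groups deviated together from their groups (r = 0.463 to 0.508 across genes). Results that turn on these libraries are given with and without them. The median of all tested genes was itself 0.18 above vector on the log2 scale in HIF1α-ko, with 0.21 for the dual knockout, and median ratio scaling moved both to 0.01.

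Promoter windows are shown first, for CCNE1 and CDKN1B, the members that differed from vector, and for CDK4, the most abundant member. From the RefSeq table of GRCh38.p14, 11 windows were read for 6 members (CCND3, CCNE1, CDK4, CDK6, CDKN1B and CDKN2C). Each ran from 250 bases before a start site to 50 after it. CCNE2 was left out of this reading. Capitals mark the core of the hypoxia response element, ACGTG or GCGTG, read on both strands (CACGT or CACGC where it lies on the other strand). The windows are chr19:29811741-29812040 (plus strand) for CCNE1, chr12:12717118-12717417 (plus strand) for CDKN1B and chr12:57752261-57752560 (minus strand) for CDK4.
CCNE1: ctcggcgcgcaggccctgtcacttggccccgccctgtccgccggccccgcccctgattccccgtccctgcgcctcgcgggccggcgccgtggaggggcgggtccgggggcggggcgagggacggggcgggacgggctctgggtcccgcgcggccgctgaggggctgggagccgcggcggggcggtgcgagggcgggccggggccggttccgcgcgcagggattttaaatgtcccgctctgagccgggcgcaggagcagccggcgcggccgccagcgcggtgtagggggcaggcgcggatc
CDKN1B: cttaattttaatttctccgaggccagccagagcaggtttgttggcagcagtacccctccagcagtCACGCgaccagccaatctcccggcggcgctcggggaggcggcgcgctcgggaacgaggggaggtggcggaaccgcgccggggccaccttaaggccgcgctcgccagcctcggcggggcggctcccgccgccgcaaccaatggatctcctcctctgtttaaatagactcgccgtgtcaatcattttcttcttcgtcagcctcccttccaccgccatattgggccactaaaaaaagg
CDK4: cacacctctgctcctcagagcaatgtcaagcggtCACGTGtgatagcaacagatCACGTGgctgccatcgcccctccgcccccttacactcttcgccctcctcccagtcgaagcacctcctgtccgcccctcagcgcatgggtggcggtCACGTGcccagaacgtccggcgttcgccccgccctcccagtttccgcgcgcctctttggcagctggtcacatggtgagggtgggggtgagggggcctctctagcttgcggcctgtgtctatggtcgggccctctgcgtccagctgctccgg

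The CCNE1 window held none of the motifs searched. The CDKN1B window held 1 core, GCGTG on the opposite strand, 185 bases before the start site. The CDK4 window held CACGTG at 3 places, beginning 216, 196 and 101 bases before the start site, and each CACGTG reads as ACGTG on both strands. A core was found in 8 of the 11 windows and in 48.4% of 35116 promoters of the table. The E2F site (TTTCGCGC, TTTGGCGC, TTTCCCGC or TTTGCCGC) and the CHR element (TTTGAA), searched on both strands, were in 0 of the 11 windows, and in 3.31% and 15.2% of all promoters. A match describes these letters only.

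**Figure D1:**
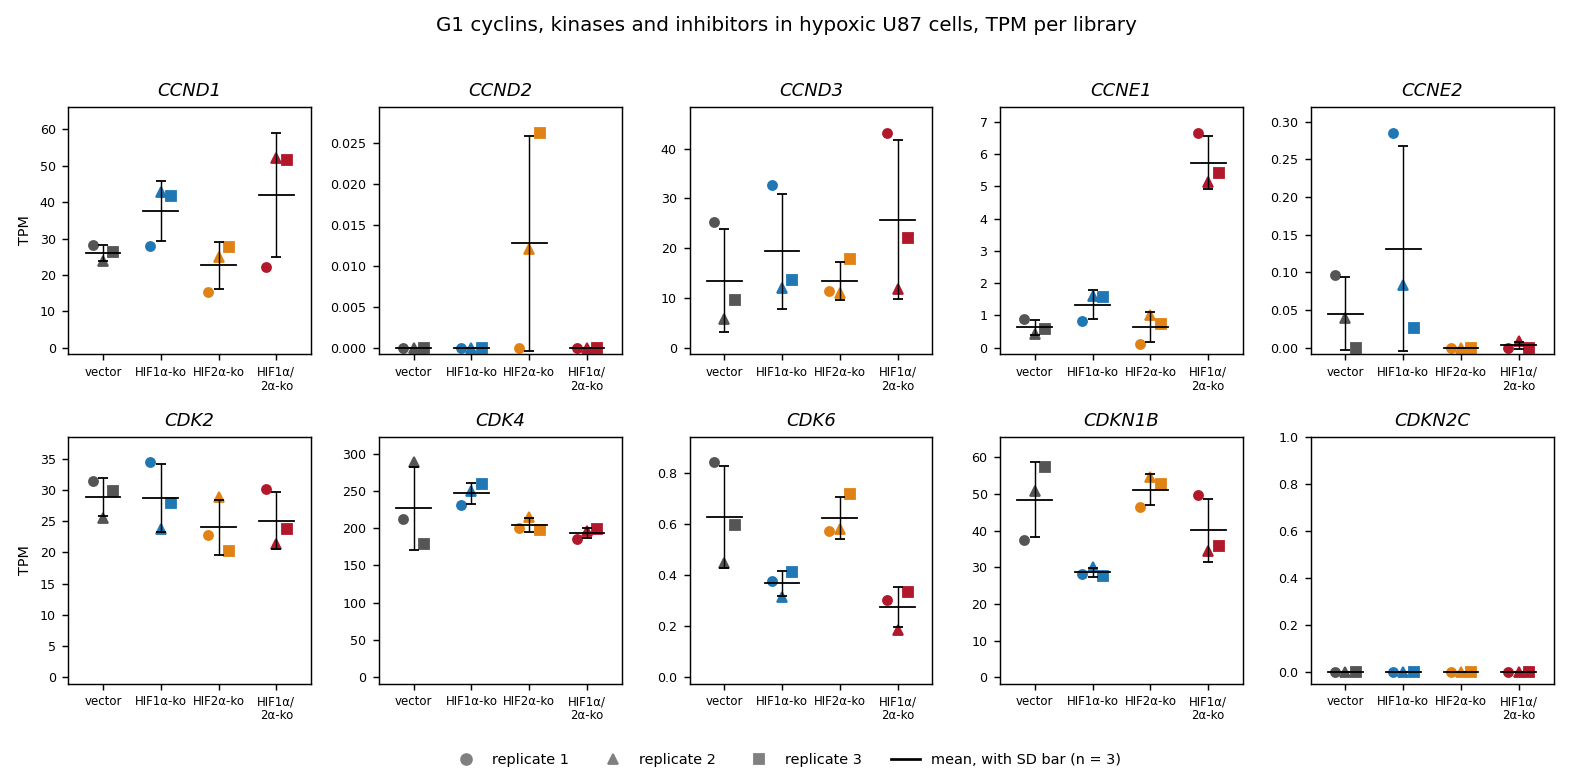
TPM (vertical axes, linear, a separate range for each gene) of the 10 members in each of the 12 libraries, by group; symbols are replicates, the line is the mean and the bar the SD (n = 3). CCNE1 lies between 5.15 and 6.66 TPM in HIF1α/2α-ko and at or below 1.62 in every other library, and CDKN1B in HIF1α-ko lies below every vector library.

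Among the members, CCNE1 was higher than vector in HIF1α/2α-ko and CDKN1B was lower than vector in HIF1α-ko, and no member passed the test in HIF2α-ko. In HIF1α-ko against vector, 0 of the 6 tested members were higher and 1 was lower, where 17.3% of all tested genes were higher and 8.77% lower. In HIF2α-ko the counts were 0 and 0 by limma, against 5.07% and 5.89% of all genes, and no member reached an unadjusted p of 0.05 (the lowest was 0.176, for CDK2). In HIF1α/2α-ko 1 member was higher and 0 lower, against 31.8% and 14.8% of all genes. The 3 comparisons share the vector libraries.

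The split of all calls depended on the scaling. Genes higher than vector made up 66.4% of the calls for the HIF1α knockout, 46.3% for the HIF2α knockout and 68.2% for the dual knockout. After median ratio scaling these shares were 45.6%, 56.5% and 52.3%. CCNE1 in HIF1α/2α-ko was 1.90 above vector on the log2 scale after that scaling (adjusted p = 5.09e-05, limma), and CDKN1B in HIF1α-ko fell by 0.92 (adjusted p = 0.0101, limma), so that neither call depended on it.

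CCND1 (cyclin D1, chr11:69641087-69654474 in GRCh38, plus strand) is the D-type cyclin most often linked to growth factor signals. It measured 28.3, 23.9 and 26.2 TPM in vector replicates 1 to 3, and the HIF1α-ko libraries gave 28.1, 42.9 and 41.6 TPM. The HIF2α-ko libraries gave 15.4, 25.1 and 27.6 TPM, and the HIF1α/2α-ko libraries gave 22.3, 52.2 and 51.5. Replicate 1 was the lowest library of each knockout group, and every knockout group overlapped vector. The log2 changes against vector were 0.49 ± 0.31 (SE) for HIF1α-ko, −0.23 ± 0.31 for HIF2α-ko and 0.57 ± 0.31 for the dual knockout, with limma adjusted p of 0.256, 0.684 and 0.146.

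The calls for CCND1 turned on the replicate 1 libraries. With replicate 1 of every group left out, CCND1 was 0.73 above vector in HIF1α-ko (limma adjusted p = 0.000534), and 1.02 above it in the dual knockout (adjusted p = 6.19e-05). Without HIF1α/2α-ko replicate 1 alone, the change in that group was 0.97 (limma adjusted p = 0.00646). Far more genes passed in these reduced fits, in either direction: 55.1% of all genes for HIF1α-ko, 36.5% for HIF2α-ko and 64.4% for the dual knockout, and 3, 0 and 4 of the 6 members.

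CCND3 (cyclin D3, chr6:41934933-42050357, minus strand) went the other way, with replicate 1 the highest library of 3 groups. Its levels were 25.2, 5.71 and 9.57 TPM in vector, and the HIF1α-ko libraries gave 32.6, 11.98 and 13.5 TPM. Values for HIF2α-ko were 11.4, 10.97 and 17.8 TPM, and the HIF1α/2α-ko libraries gave 43.2, 11.8 and 22.1. All groups overlapped, and HIF2α-ko was the group in which replicate 1 was not the highest. The log2 changes against vector were 0.59 ± 0.53 (SE), 0.19 ± 0.53 and 0.94 ± 0.53, with limma adjusted p of 0.429, 0.86 and 0.167. In HIF1α/2α-ko the change passed the test without vector replicate 1 (1.48, limma adjusted p = 0.0326) and also with every replicate 1 left out (1.03, adjusted p = 0.033).

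CCND2 (cyclin D2, chr12:4273772-4305350, plus strand) was listed at 0 in 10 of the 12 libraries and at 0.0262 TPM at most, in HIF2α-ko, and was not tested. The D-type cyclin transcripts were therefore almost all CCND1 and CCND3. CCND1 made up 68.9% ± 14.5 of the summed D-type cyclin TPM in vector. Its share was 66.6% ± 17.7 for HIF1α-ko, 62.6% ± 6.21 for HIF2α-ko and 61.8% ± 24.8 for the dual knockout (SD, n = 3 each). The share was lowest in replicate 1 of every group, from 34% in HIF1α/2α-ko to 57.5% in HIF2α-ko.

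**Figure D2:**
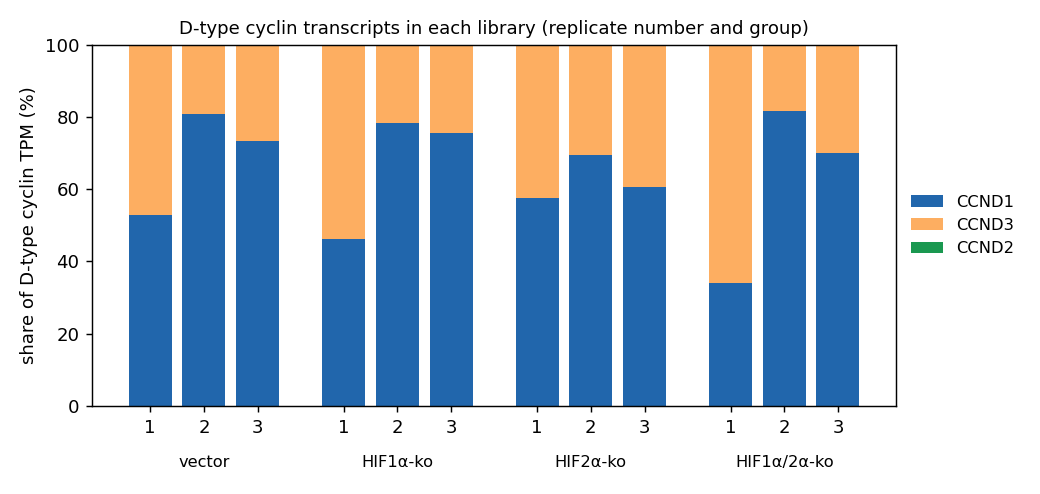
Share of the summed D-type cyclin TPM (vertical axis, percent) taken by CCND1, CCND3 and CCND2 in each library, by group and replicate number; CCND2 is too small to be seen. CCND1 holds 34% to 57.5% in the replicate 1 libraries and 60.7% to 81.6% in the others.

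CCND1 and CCND3 deviated in opposite directions in replicate 1 of HIF1α/2α-ko, and their sum was less spread in that group than either gene (SD 5.22 TPM, against 17.1 and 16.0). The sum was 39.6 ± 12.4 TPM in vector, 56.9 ± 3.32 for HIF1α-ko, 36.1 ± 9.30 for HIF2α-ko and 67.7 ± 5.22 for the dual knockout (SD, n = 3 each). The highest vector library had 53.5 TPM, the lowest HIF1α-ko library 54.8 and the lowest HIF1α/2α-ko library 63.9, so neither group overlapped vector on the deposited scale. After median ratio scaling, an alternative added after seeing the data, the HIF1α-ko sums (47.3 to 60.1) overlapped vector (33.3 to 54.0), and the lowest dual knockout library (54.9) lay just above it. No test was run on the sum.

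CCNE1 (cyclin E1, ENSG00000105173, chr19:29811898-29824308 in GRCh38, plus strand), which activates CDK2 late in G1, showed the largest change from vector among the tested members. It measured 0.883, 0.430 and 0.584 TPM in vector, and the HIF1α-ko libraries gave 0.817, 1.62 and 1.57 TPM. Levels in the HIF2α-ko libraries were 0.127, 1.02 and 0.747 TPM, and the HIF1α/2α-ko libraries gave 6.66, 5.15 and 5.41. Every HIF1α/2α-ko library lay above every other library, whereas vector overlapped both single knockouts. The mean in HIF1α/2α-ko was 5.74 ± 0.809 TPM against 0.632 ± 0.230 in vector (SD, n = 3 each), a ratio of 9.08.

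On the log2(TPM + 1) scale, which understates the change of a low gene, CCNE1 rose by 2.05 ± 0.23 (SE) in HIF1α/2α-ko against vector (limma adjusted p = 2.71e-05). The single knockouts gave 0.51 ± 0.23 for HIF1α and −0.03 ± 0.23 for HIF2α (limma adjusted p = 0.118 and 0.949). Leaving out every replicate 1, the change in HIF1α-ko was 0.78 and passed the test (limma adjusted p = 0.00168). CCNE1 reached 1 TPM in 6 libraries, 3 of them HIF1α/2α-ko, and it was not tested when a mean of at least 5 TPM was required.

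CCNE1 in the dual knockout also exceeded both single knockouts. It was 1.54 above HIF1α-ko (limma adjusted p = 0.000483) and 2.08 above HIF2α-ko (adjusted p = 2.41e-05), on the log2 scale. The interaction, which is the change in the dual knockout less the sum of both single changes, was 1.58 ± 0.32 (SE, limma adjusted p = 0.00621). Without every replicate 1 it was 0.96 (limma adjusted p = 0.00456). CCNE1 was the 1 member of the 6 that passed this test, with 0 lower, where 13.2% of all genes were higher and 7.35% lower.

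The genes beside CCNE1 on chromosome 19 were read as well. PLEKHF1, an endosomal protein gene, was 11.7 ± 4.02 TPM in vector and 34.3 ± 5.05 in HIF1α/2α-ko (SD, n = 3 each). C19orf12, the nearest gene upstream, was 13.5 ± 5.47 and 14.2 ± 5.83 TPM, and URI1, the nearest downstream, 19.4 ± 3.02 and 25.1 ± 4.82. These genes were named for their position, and no test of them is given.

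**Figure D3:**
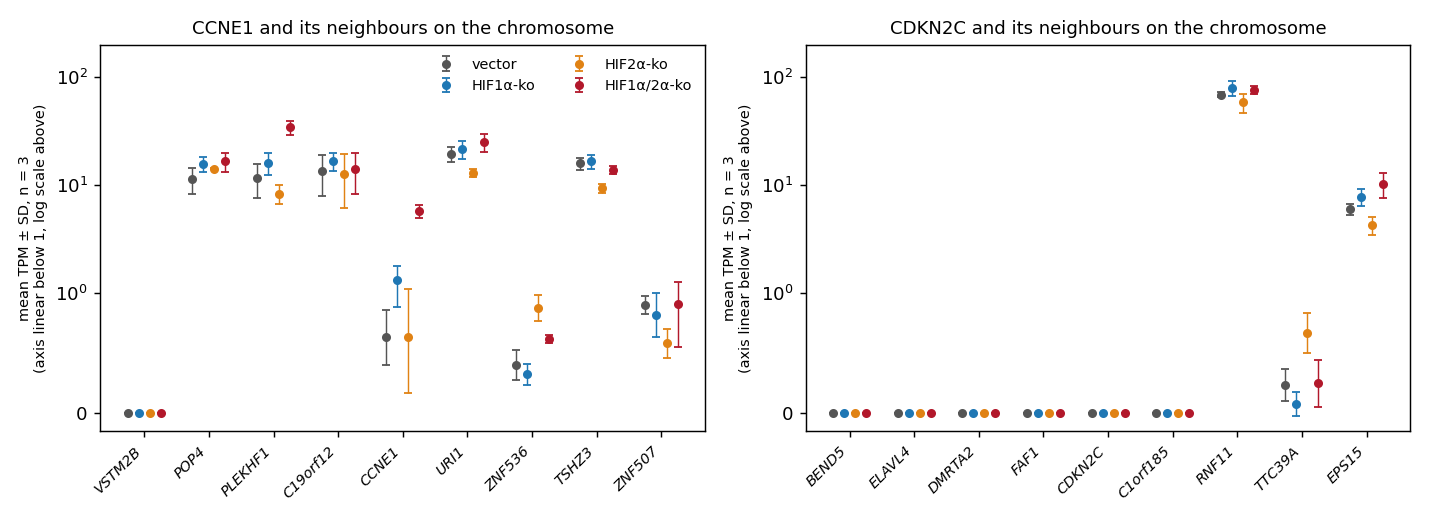
Mean TPM with SD (n = 3, vertical axes linear below 1 and logarithmic above) of CCNE1 and CDKN2C and of the 4 genes on each side, in chromosomal order, by group. CCNE1 rises from 0.632 TPM in vector to 5.74 in HIF1α/2α-ko while C19orf12 beside it stays at 13.5 and 14.2 TPM, and CDKN2C lies in a run of genes listed at 0, from BEND5 to C1orf185.

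CCNE2, the other E-type cyclin, was near 0 and was not tested. It was listed at 0 in 6 libraries, among them every HIF2α-ko library, and its highest value was 0.285 TPM, in HIF1α-ko replicate 1. CCNE1 thus made up 94% ± 5.28 of the E-type cyclin TPM in vector, with 89.2% ± 13.2 for HIF1α-ko and 99.9% ± 0.115 for the dual knockout (SD, n = 3 each). The summed E-type cyclins were 0.677 ± 0.267 TPM in vector and 5.75 ± 0.806 in HIF1α/2α-ko, still far below the summed D-type cyclins.

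No tested kinase differed from vector past the threshold. CDK4 (chr12:57747727-57756013, minus strand), the partner of the D-type cyclins, measured 213, 288 and 179 TPM in vector, and the HIF1α-ko libraries gave 232, 250 and 259 TPM. The HIF2α-ko libraries gave 201, 215 and 198 TPM, and the HIF1α/2α-ko libraries gave 185, 197 and 199. The vector libraries spanned the range of all the knockouts. CDK4 made up 88% ± 3.33 of the summed TPM of CDK2, CDK4 and CDK6 in vector and between 88.4% and 89.4% on average in the knockouts (n = 3 each).

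Against vector, the log2 changes of CDK4 were 0.15 for HIF1α-ko, −0.12 for HIF2α-ko and −0.20 for the dual knockout (SE 0.15 each, limma adjusted p = 0.478, 0.661 and 0.289). On the deposited scale, CDK4 in HIF1α-ko lay above every library of both other knockouts. The differences from HIF1α-ko were −0.35 for HIF1α/2α-ko and −0.27 for HIF2α-ko, with limma adjusted p of 0.0988 and 0.193. With the replicate number as a block within the 3 knockout groups, both passed the test (adjusted p = 0.00365 and 0.0117, limma). That block was fitted on the deposited scale. After median ratio scaling, without the block, the differences were −0.37 and −0.02 (limma adjusted p = 0.129 and 0.952).

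CDK2 (chr12:55966769-55972784, plus strand), the partner of the E-type cyclins, measured 31.4, 25.5 and 29.8 TPM in vector, and the HIF1α-ko libraries gave 34.5, 23.8 and 28.0 TPM. Values for HIF2α-ko were 22.9, 28.9 and 20.3 TPM, and the HIF1α/2α-ko libraries gave 30.2, 21.3 and 23.8. All 4 groups overlapped. The log2 changes against vector were −0.02, −0.27 and −0.21 (SE 0.19 each), and their 95% intervals reached from −0.67 to 0.38 across the comparisons, so that changes of a size between these bounds are compatible with these values.

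CDK6 (chr7:92604921-92836594, minus strand), which also binds D-type cyclins, was below 1 TPM in every library and was not tested. It measured 0.842, 0.447 and 0.597 TPM in vector, and the HIF1α-ko libraries gave 0.377, 0.316 and 0.411 TPM. Levels in the HIF2α-ko libraries were 0.573, 0.582 and 0.718 TPM, and the HIF1α/2α-ko libraries gave 0.303, 0.185 and 0.335. The HIF1α-ko and HIF1α/2α-ko libraries lay below every vector and HIF2α-ko library. With no filter on low values, the log2 change against vector was −0.35 in HIF1α/2α-ko (limma adjusted p = 0.00938) and −0.24 in HIF1α-ko (adjusted p = 0.0725).

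CDKN1B (p27, ENSG00000111276, chr12:12715058-12722371 in GRCh38, plus strand) was the inhibitor that changed among the members. It measured 37.4, 50.7 and 57.4 TPM in vector, and the HIF1α-ko libraries gave 28.1, 30.1 and 27.8 TPM. The HIF2α-ko libraries gave 46.3, 54.7 and 52.7 TPM, and the HIF1α/2α-ko libraries gave 49.9, 34.4 and 36.0. The HIF1α-ko libraries lay close together and below every other library. CDKN1B fell by 0.72 ± 0.18 (SE) on the log2 scale in HIF1α-ko (limma adjusted p = 0.0122), and the mean was 28.6 ± 1.26 TPM against 48.5 ± 10.2 in vector (SD, n = 3 each). Without vector replicate 3 the change was −0.59 and missed the threshold (limma adjusted p = 0.0579).

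In HIF2α-ko CDKN1B was 0.10 ± 0.18 (SE) from vector (limma adjusted p = 0.779), and it was 0.82 higher than in HIF1α-ko (adjusted p = 0.00651). It was the 1 member higher in HIF2α-ko than in HIF1α-ko, with 0 lower, against 7.37% and 17.8% of all genes. That background turned with the scaling, from 865 genes higher and 2084 lower to 1300 and 1032 after median ratio scaling, and the total of 2949 went to 1451 to 1898 on leaving out replicate 2 or 3 of HIF1α-ko or replicate 1 or 2 of HIF2α-ko. With every replicate 1 left out it was 5521. CDKN1B was 1.06 higher after median ratio scaling (limma adjusted p = 0.00448). In HIF1α/2α-ko the difference from vector was −0.27 ± 0.18 (limma adjusted p = 0.238), with replicate 1 the highest library of its group. That difference passed the test without vector replicate 1 (−0.44, limma adjusted p = 0.0414) and without every replicate 1 (−0.60, adjusted p = 0.000971). With all libraries it was −0.49 after median ratio scaling (limma adjusted p = 0.0803) and passed after quantile normalization (−0.52, adjusted p = 0.0392).

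CDKN2C (p18, chr1:50960745-50974633, plus strand) was listed at 0 in all 12 libraries. FAF1, DMRTA2, ELAVL4 and BEND5 on one side and C1orf185 on the other were also listed at 0 throughout, and the next gene, RNF11, was between 45.3 and 90 TPM. FAF1 is expressed in most cell types, and what the value of 0 stands for in this stretch was not tested. On chromosome 9, the INK4 genes CDKN2A and CDKN2B were listed at 0 in every library, and their neighbour MTAP was at 0.0138 TPM at most.

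**Figure D4:**
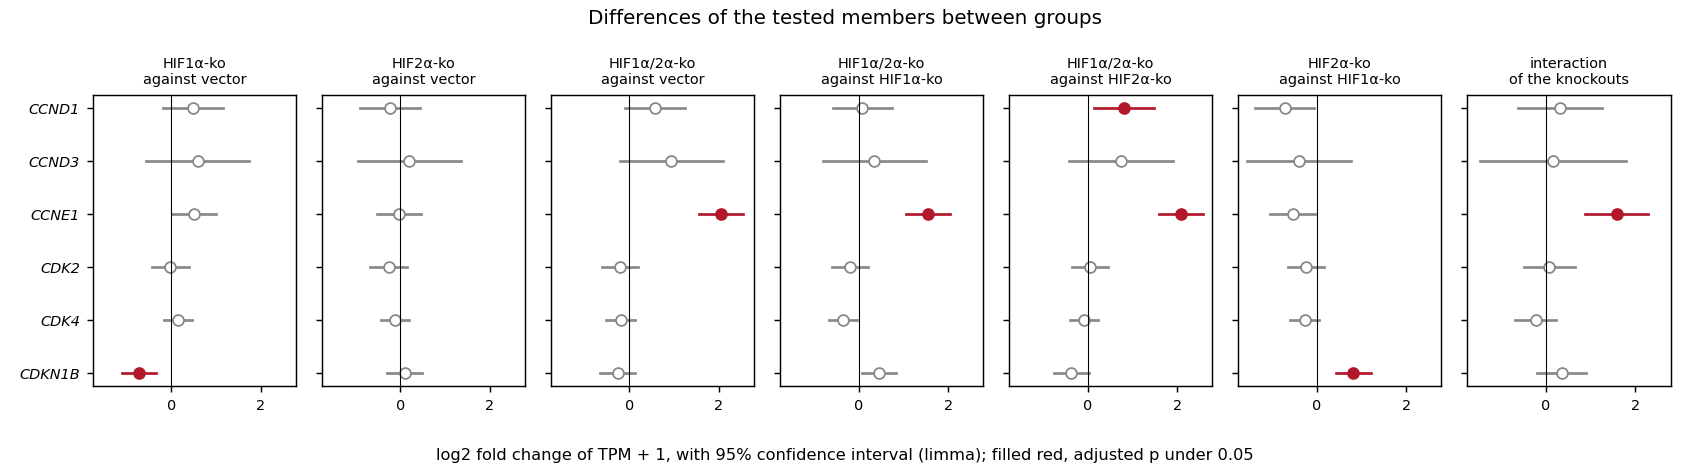
Log2 fold change of TPM + 1 (horizontal axes) with its 95% confidence interval from limma, for the 6 tested members (rows) in the 7 comparisons (panels); filled red points have an adjusted p under 0.05. CCNE1 is filled in the 3 comparisons of HIF1α/2α-ko with another group and in the interaction, CDKN1B in the comparisons of HIF1α-ko with vector and with HIF2α-ko, and CCND1 in HIF1α/2α-ko against HIF2α-ko.

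Between the knockouts, the counts were also small. In HIF1α/2α-ko against HIF1α-ko, 1 of the 6 members was higher (CCNE1) and 0 were lower, against 17.7% and 10.6% of all genes. In HIF1α/2α-ko against HIF2α-ko, 2 members were higher (CCND1 and CCNE1) and 0 lower, against 33.5% and 12.9%. The latter split was 3933 genes higher and 1509 lower, and 2748 and 2468 after median ratio scaling. CCND1 was 0.80 ± 0.31 (SE) higher there (limma adjusted p = 0.0477) although the groups overlapped, and after median ratio scaling the difference was 0.54 and missed the threshold (adjusted p = 0.0963, limma). The call was also lost on leaving out any 1 of 9 libraries (adjusted p = 0.0551 to 0.187, limma), namely any vector library, replicates 2 and 3 of HIF1α-ko or of the dual knockout, or replicates 1 and 2 of HIF2α-ko.

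The difference of CDKN1B between the dual knockout and HIF2α-ko depended on the scaling. It was −0.36 with all libraries (limma adjusted p = 0.112), −0.63 after median ratio scaling (adjusted p = 0.0297) and −0.66 after quantile normalization (adjusted p = 0.0143). Under both scalings CDKN1B thus took the place of CCND1 among the 2 members called. Without HIF1α/2α-ko replicate 1 it was −0.53 (limma adjusted p = 0.0243). CDK4 in the dual knockout against HIF1α-ko passed after quantile normalization (limma adjusted p = 0.0437), with only these groups in the fit (adjusted p = 0.03) and without vector replicate 2 (adjusted p = 0.0308), and CDKN1B there without vector replicate 1 (adjusted p = 0.0305). With 1 library fewer, CCND1 in HIF2α-ko against HIF1α-ko passed without HIF1α/2α-ko replicate 1 (−0.72, limma adjusted p = 0.028) and CCNE1 without HIF1α-ko replicate 1 (−0.71, adjusted p = 0.0486). With every replicate 1 left out, CDKN1B passed against both single knockouts (0.28 and −0.60 in the dual knockout, limma adjusted p = 0.0456 and 0.00115), and CCND1 and CCNE1 passed in HIF2α-ko against HIF1α-ko (−0.66 and −0.46, adjusted p = 0.00131 and 0.0199). CCND1 was then also 0.29 higher in the dual knockout than in HIF1α-ko (limma adjusted p = 0.0338). In that reduced fit, 3 of the 6 members passed in each comparison between knockouts. Of all 11731 genes, 5276 passed in HIF1α/2α-ko against HIF1α-ko, 7122 against HIF2α-ko and 5521 in HIF2α-ko against HIF1α-ko.

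Libraries with the same number could be paired across the knockout groups, and the block raised the counts in both comparisons with HIF1α-ko. The count in HIF1α/2α-ko against HIF2α-ko stayed at 2. With it, 3 members passed in HIF1α/2α-ko against HIF1α-ko, 2 against HIF2α-ko and 3 in HIF2α-ko against HIF1α-ko, where 48.5%, 62.6% and 50.5% of all genes passed in either direction. CCND1 was then 0.72 lower in HIF2α-ko than in HIF1α-ko with a limma adjusted p of 0.0038, against 0.102 without the block. In the dual knockout CDKN1B was 0.45 above HIF1α-ko with an adjusted p of 0.0343, against 0.0748 without it (limma).

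The other inhibitors of the same families differed from CDKN1B. CDKN1A (p21, a target of p53 that also binds cyclin-kinase complexes) measured 144, 173 and 163 TPM in vector, and the HIF1α-ko libraries gave 177, 177 and 173 TPM. Values for HIF2α-ko were 205, 179 and 172 TPM, and the HIF1α/2α-ko libraries gave 472, 193 and 489. In HIF1α/2α-ko it stood above every vector library, with replicate 2 close to the single knockouts. CDKN1A rose by 1.15 ± 0.27 (SE) on the log2 scale in HIF1α/2α-ko (limma adjusted p = 0.00423), and with every replicate 1 left out the adjusted p was 0.0674.

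CDKN2D (p19, an INK4 inhibitor) was the family member that rose in HIF2α-ko. It measured 16.6, 20.6 and 16.5 TPM in vector, and the HIF1α-ko libraries gave 21.4, 21.03 and 24.8 TPM. Levels in the HIF2α-ko libraries were 38.6, 36.6 and 36.6 TPM, and the HIF1α/2α-ko libraries gave 30.6, 24.9 and 23.1. No vector library reached the lowest library of any knockout group. CDKN2D rose by 1.02 ± 0.15 (SE) in HIF2α-ko, and by 0.52 ± 0.15 with the dual knockout (limma adjusted p = 0.00264 and 0.0111). The second call was lost under both scalings and with only the groups compared, with an adjusted p of up to 0.271 (limma).

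CDKN1C (p57) was a low transcript, at 0.298 to 1.59 TPM. It fell by 0.49 ± 0.17 (SE) on the log2 scale in HIF1α/2α-ko (limma adjusted p = 0.0366, up to 0.15 under other settings). Of the 7 inhibitors of both families, 4 were tested, and 3 (CDKN2A, CDKN2B and CDKN2C) were listed at 0 throughout.

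**Figure D5:**
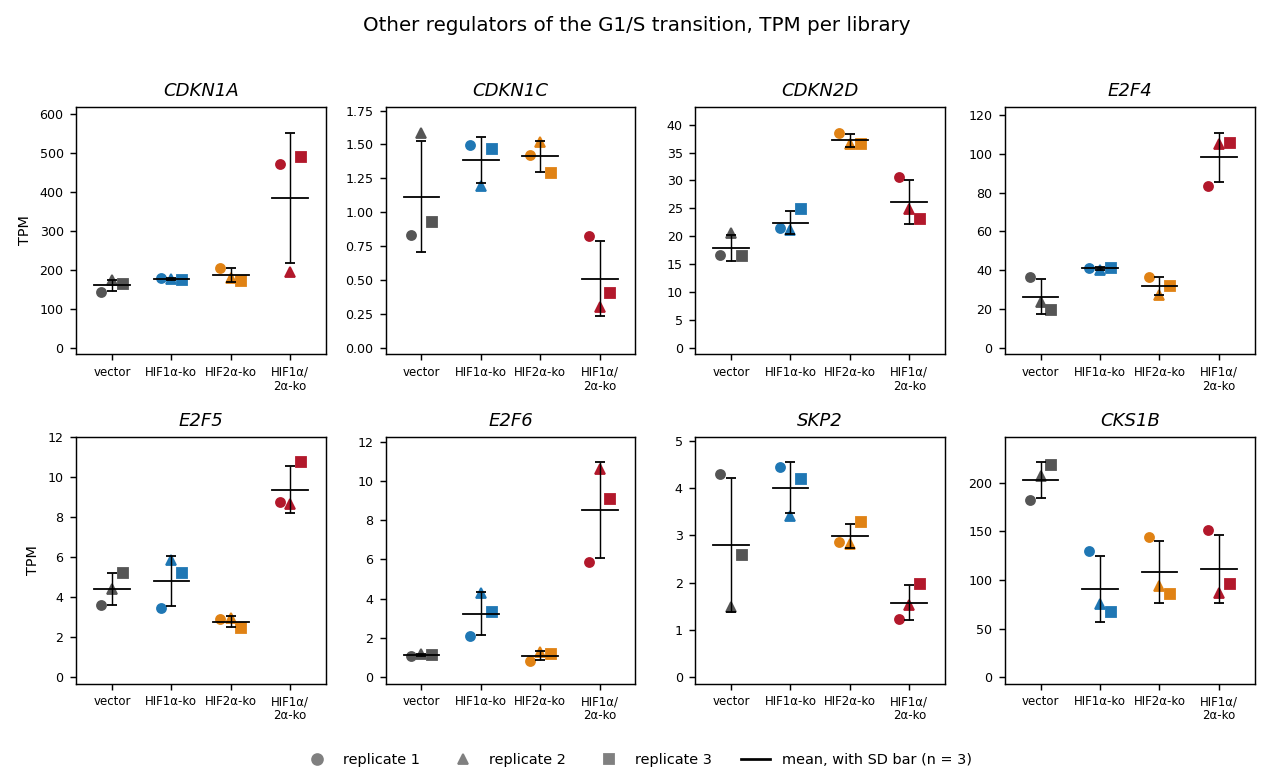
TPM (vertical axes, linear, a separate range for each gene) in each library of 8 further regulators of the passage from G1 to S phase; symbols are replicates, the line is the mean and the bar the SD (n = 3). E2F4, E2F5 and E2F6 are highest in HIF1α/2α-ko, CDKN2D in HIF2α-ko, and CKS1B is lower in each knockout than in vector.

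Of 38 other regulators of the passage from G1 to S phase, 32 were tested. HIF1α-ko had 4 higher and 3 lower, HIF2α-ko had 2 and 4, and the dual knockout 13 and 7, the last with a median log2 change of 0.40 beside 0.21 for all genes. Of all genes, 17.3% and 8.77%, 5.07% and 5.89%, and 31.8% and 14.8% were called in these directions. The 4 higher in HIF1α-ko became 1 without its replicate 2 or vector replicate 2, 2 without its replicate 3, without vector replicate 3 or after median ratio scaling, and 9 without every replicate 1. The 4 lower in HIF2α-ko became 0 without vector replicate 3 or without its own replicate 2 or 3, 1 without vector replicate 2 or after median ratio scaling, and 7 without vector replicate 1 or every replicate 1. The dual knockout had 11 and 9 after median ratio scaling, and its 7 lower became 4 without its replicate 2 or 3. Repressor E2F genes E2F4, E2F5 and E2F6 were among those that rose in HIF1α/2α-ko. E2F4 and E2F6 were also called higher in HIF1α-ko, by 0.66 and 0.95 on the log2 scale. These HIF1α-ko calls were lost under 8 and 1 of the other settings. E2F4, which acts with the pocket proteins RBL1 and RBL2 in quiescent cells, rose from 26.4 ± 8.83 to 98.2 ± 12.6 TPM (SD, n = 3 each), a log2 change of 1.90 (limma adjusted p = 1.93e-05).

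E2F6, a repressor that works without pocket proteins, was 1.14 ± 0.0600 TPM in vector and 8.52 ± 2.43 in HIF1α/2α-ko (SD, n = 3 each), a log2 change of 2.12 (limma adjusted p = 2.01e-05). E2F5 rose by 0.94 (limma adjusted p = 0.00162). E2F8, an atypical repressor, fell by 1.13 and RBL1 (p107) by 0.61 in the same group (limma adjusted p = 0.0116 and 0.00719). The activators E2F1 and E2F3, and RB1 and RBL2, gave no call against vector in any knockout.

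Among the subunits and the cofactor of a ligase that marks CDKN1B protein for breakdown, some transcripts were called lower and some higher. SKP2, the ubiquitin ligase subunit that recognises CDKN1B, was 2.80 ± 1.42 TPM in vector and 1.58 ± 0.373 in HIF1α/2α-ko (SD, n = 3 each), and its log2 difference of −0.50 missed the threshold (limma adjusted p = 0.101). Against HIF1α-ko the dual knockout differed by −0.96 in SKP2, a call kept under every other setting. Its difference of −0.64 from HIF2α-ko was called but lost under 9 of the other settings. CKS1B, the cofactor of SKP2, was 203 ± 18.2 TPM in vector and fell by 1.21 for HIF1α-ko, 0.94 for HIF2α-ko and 0.90 for the dual knockout (limma adjusted p = 0.00788, 0.0456 and 0.0169). The HIF2α-ko and HIF1α/2α-ko calls for CKS1B were lost under other settings, with an adjusted p of up to 0.156 and 0.072 (limma). In HIF1α/2α-ko the subunits SKP1, CUL1 and RBX1 rose by 0.91, 1.04 and 1.21 (limma adjusted p = 0.0241, 0.00435 and 0.0017), and the SKP1 call was lost under 7 of the other settings, among them both scalings. RBX1 also rose in HIF1α-ko by 0.85 and in HIF2α-ko by 1.11 (limma adjusted p = 0.0256 and 0.0151), and these calls were lost under 6 and 5 of the other settings.

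MYC, an inducer of several G1 genes, spread too widely for a call, from 2.87 to 24.4 TPM, and its replicate 1 library was the highest in 3 of the 4 groups. CDC25A, the phosphatase that activates CDK2, was at most 0.526 TPM and was not tested. Of 20 genes that E2F factors are known to drive in S phase, 19 were tested, and 1 was higher and 5 lower for HIF1α-ko, 0 and 1 for HIF2α-ko, and 2 and 9 for the dual knockout (1 and 11 after median ratio scaling). Of all genes, 8.77%, 5.89% and 14.8% were lower. E2F1 and CCNA2 are also among the other regulators counted above, and CCNA2 was counted as lower in both lists for every knockout. The 5 in HIF1α-ko became 2 without its replicate 2 or 3 and 11 without every replicate 1, and the 9 in the dual knockout became 5 without its replicate 2. The 1 in HIF2α-ko became 0 under both scalings and 6 without every replicate 1. Their median log2 change in HIF1α/2α-ko was −0.51 beside 0.21 for all genes. RRM2, a subunit of ribonucleotide reductase, fell by 1.60 (limma adjusted p = 0.00904) and CCNA2 (cyclin A2, the partner of CDK2 in S phase) by 1.25 (adjusted p = 0.00299) in that group. Both were also called lower in HIF1α-ko, with log2 changes of −1.68 for RRM2 and −1.77 for CCNA2. The RRM2 call there was lost without HIF1α-ko replicate 2 or 3. In HIF2α-ko CCNA2 changed by −1.06, a call lost under 8 of the other settings. Fewer cells in S phase and less of these transcripts per cell cannot be told apart in bulk RNA. By flow cytometry, the paper reports more U87 cells in G2/M and S phase together after the dual knockout under hypoxia. It reports no significant cell cycle effect of either single knockout. How that assay relates to these transcripts was not tested.

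The genes whose patterns were most like those of CCNE1 and CDKN1B were found from the difference in log2(TPM + 1), centred for each gene, over the 12 libraries. CCNJ (cyclin J) and HSPA4 (a heat shock protein) came closest to CCNE1, with root mean square differences of 0.252 and 0.257 beside an SD of 0.919 for CCNE1 itself. HSPA4 went from 3.24 TPM on average in vector to 17.5 in HIF1α/2α-ko. ZBTB25 and DDTL came closest to CDKN1B, with 0.128 and 0.138 beside an SD of 0.381. Likeness over so few libraries is a description of these values.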

How the data were processed

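Poly(A)-selected RNA of 12 libraries was sequenced. The authors deposited TPM values, 1 column per library and no pooling, and their processing notes name FastQC 0.11.2, Trimmomatic 0.36, HISAT2 2.0, bedtools 2.26.0 and GRCh38. The counting tool and annotation are not given in the sources used here. TPM keeps no depth, so no counting error or detection limit is given and a 0 is only a listed value. Groups came from the sample labels, and the vector columns were identified by lacking a knockout code. Symbols came from a gene names table (20148 of 20263 identifiers) and, with positions, from GENCODE 29.

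log2(TPM + 1) was fitted with limma 3.58.1 in R 4.3.3 (mean-variance trend, all 4 groups in 1 model, genes reaching a TPM of 1 in 3 or more libraries), with Benjamini-Hochberg adjustment within each comparison at 0.05. The script was tested on simulated data. Figures were drawn with matplotlib 3.10.9 in Python 3.11.15, and tables made with numpy 2.4.6 and pandas 2.3.3. The members, lists and tests were chosen with earlier results of these data known. Named were all members, the knockout targets with CA9 and BNIP3, the inhibitors, pocket proteins, E2F genes, MYC, CDC25A, SKP2 and CKS1B. For each member called against vector, the 2 genes most like it were named as well. The genes beside CCNE1, CDKN2C and CDKN2A, RRM2, CCNA2, SKP1, CUL1 and RBX1 were named after their values were seen.

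Same-numbered libraries deviated together in the knockout groups (r = 0.463 to 0.508, 0.227 to 0.25 and 0.196 to 0.222 for replicates 1, 2 and 3), and were treated as paired there from the values alone. Vector libraries did not pair with them (r = −0.0265 to 0.163). Alternatives were a pseudocount of 0.1, other filters, scalings and variance models, fits of only the groups compared, the replicate block, a log2 change of at least 1, and leaving out libraries.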

Additional observations from a re-analysis of the deposited data

Results flagged for a closer look

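CCNE1 is given a closer look because its response to the dual knockout differed from what both single knockouts add up to. The interaction was 1.58 on the log2(TPM + 1) scale (limma adjusted p = 0.00621). Leaving out every replicate 1 gave 0.96 (limma adjusted p = 0.00456). All 3 HIF1α/2α-ko libraries, at 5.15 to 6.66 TPM, lay above the highest of the other 9.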

How the results depend on the processing

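Over 22 alternative settings the 42 results of a tested member in a comparison gave 887 values, of which 843 kept their side of the threshold and direction where called, 15 lost the call, 29 gained one and 0 reversed a called direction. The number of members called in HIF1α-ko against vector went from 1 to 0 when a log2 change of at least 1 was also required, and from 0 to 3 when libraries were left out. In HIF1α/2α-ko against vector it went from 1 to 2 with no filter, with quantile normalization or with the replicate block over all groups, to 0 with a mean TPM of at least 5, and from 1 to 4 when libraries were left out. Against HIF1α-ko, the dual knockout had 0 with a mean TPM of at least 5, 2 with quantile normalization or only the groups compared, 3 with the replicate block in the knockout groups, and 1 to 3 with libraries left out. Against HIF2α-ko it had 1 in place of 2 when a log2 change of at least 1 or a mean TPM of at least 5 was required, with no mean-variance trend, or with only the groups compared, and 1 to 3 with libraries left out. Its count stayed at 2 after either scaling, with CDKN1B called in place of CCND1. In HIF2α-ko against HIF1α-ko the count went from 1 to 0 with a log2 change of at least 1, to 2 with the block over all groups, to 3 with the block in the knockout groups, and was 1 to 3 with libraries left out. The interaction count went from 1 to 0 with a mean TPM of at least 5, which removes CCNE1 from the genes tested, and stayed at 1 with libraries left out. HIF2α-ko against vector stayed at 0 throughout. The pairing changed no other member count by more than 1.5 times. With single libraries or replicate 1 of every group left out, the genes called among all genes ranged from 1552 to 6461 in HIF1α-ko, 471 to 4283 in HIF2α-ko and 4319 to 7550 in HIF1α/2α-ko against vector (3060, 1286 and 5473 with all libraries). For HIF1α/2α-ko they ranged from 2310 to 5276 against HIF1α-ko and 4237 to 7122 against HIF2α-ko (3322 and 5442 with all libraries). HIF2α-ko against HIF1α-ko had 1451 to 5521 (2949) and the interaction 1542 to 5040 (2414), of 11731 tested. Each highest count came with every replicate 1 left out. In HIF1α/2α-ko against HIF1α-ko, 3648 genes passed with quantile normalization and 3196 with only the groups compared. The causes were not tested. Depth is not known from TPM, so the precision of the values near 0 (CCND2, CCNE2 and CDK6) cannot be given.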
